A study of Mus musculus with 8 samples.

Results

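The genes described here are 43 genes of the cell division cycle: the cyclins and the kinases they switch on, the inhibitors that hold these kinases back, E2F transcription factors, and the checkpoint, spindle and chromosome genes of mitosis. They were listed by name, and were found in the deposited table through their Ensembl identifiers and mouse GENCODE annotation. All 43 were present among the 55359 identifiers of the table, and all 43 passed the filter on low values (a mean over the samples of 10 or more normalized counts), which left 16309 genes to test. The normalized count is the number of reads on a gene divided by a factor that sets the 8 libraries to a common scale.

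The study measured total RNA in bone-marrow-derived Mϕ (BMDMs) that had or had not taken up dying cells, with and without an inflammatory stimulus. All BMDMs came from wildtype C57BL/6 mice, adult males and females, and were grown from bone marrow for 7 days per the labels with M-CSF and GM-CSF, each at 20 ng/mL. The methods give 6 days, after which co-culture began. Ctrl were naïve Mϕ that received neither apoptotic cells nor LPS/IFNγ. LPS were naïve Mϕ given LPS at 100 ng/mL together with IFNγ at 100 U/mL, and harvested 6 h later. Eff were efferocytic Mϕ, kept for 16 h with apoptotic NIH-3T3 fibroblasts at 5 fibroblasts per Mϕ and washed afterwards. LPSEff were efferocytic Mϕ that received the same LPS/IFNγ stimulus for 6 h after washing. The fibroblasts are a clone that carries a human caspase-8 domain and dies when a dimerizer (10 nM) brings that domain together. The dimerizer stayed in the co-culture of Eff and LPSEff, and whether Ctrl and LPS received it is not given in the sources used here, so that its part in a difference between efferocytic and naïve Mϕ cannot be told apart. CD45 beads were used to collect the Mϕ. Each group had n = 2 samples, and nothing in the labels says that they came from separate mice or cultures, so that the p-values below measure the spread between these samples only, which may be technical. The Ctrl libraries held 3481288 and 12020918 reads, the LPS libraries 6548938 and 9344411, the Eff libraries 7517814 and 9745287, and the LPSEff libraries 11267193 and 7472370.

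As background, growth factors such as M-CSF drive Mϕ precursors into division by inducing D-type cyclins, which pair with CDK4 and CDK6 and phosphorylate the retinoblastoma protein. E2F factors are then released and transcribe the genes for cyclins E and A and for DNA synthesis, and later a second wave, activated by complexes of MuvB with B-MYB and FOXM1, supplies the proteins of mitosis. In resting cells and in G1 the DREAM complex, which also holds MuvB, represses these genes. Inhibitors of the CIP/KIP family (p21, p27) and of the INK4 family (p18) oppose the kinases, and bacterial LPS and interferon are known to halt the division of Mϕ grown in M-CSF.

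The labelled cell type was checked against its markers first. All 10 Mϕ markers were present in each sample, and their summed normalized counts lay between 108856 and 164148, with Lyz2 the most abundant. Markers of T cells (Cd3e), neutrophils (Ly6g) and NK cells (Nkg7) did not exceed 19.4 normalized counts in any sample, and both globin genes were at 0. Markers of dendritic cells were higher. Ccr7, a chemokine receptor of mature dendritic cells, stood at 1839 and 2128 normalized counts (Ctrl), 7649 and 14409 (LPS), 1151 and 1296 (Eff) and 6243 and 5719.9 (LPSEff) and rose with LPS/IFNγ (log2 fold change 2.41 in naïve and 2.29 in efferocytic Mϕ, adjusted p = 0.000871 and 0.00119 in limma). Zbtb46, a transcription factor of dendritic cells, stood at 118 and 323 normalized counts (Ctrl), 429 and 745 (LPS), 112 and 225 (Eff) and 286 and 362 (LPSEff) and did not pass (log2 fold change 1.53 and 1.01, adjusted p = 0.0653 and 0.218 in limma), but did in both comparisons with the replicate number as a block (adjusted p = 0.000332 and 0.00507 in limma). The part of dendritic cells in the values of the 43 genes was not tested.

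The promoters of some of the genes are printed first, because many of the genes that fell share short words near their start sites. The windows reach from 250 bases before to 50 bases after the annotated start, in the RefSeq annotation of the build GRCm38.p6, and 34 of the 43 genes had at least 1 window. Each is written 5′ to 3′ on the strand of the gene. Capitals mark the words that were searched for on both strands: the cell cycle homology region (CHR; TTTGAA or TTCGAA), to which the MuvB core binds, an E2F word (TTTCCCGC, TTTCGCGC, TTTGCCGC or TTTGGCGC), and the CCAAT box. Cenpf, Cdc20 and Bub1 are shown as examples of promoters that hold both a CHR and CCAAT boxes, E2f2 and Cdca7 for the E2F word, and Cdkn1b as a gene that rose with LPS/IFNγ and holds neither CHR nor E2F word.
Cenpf: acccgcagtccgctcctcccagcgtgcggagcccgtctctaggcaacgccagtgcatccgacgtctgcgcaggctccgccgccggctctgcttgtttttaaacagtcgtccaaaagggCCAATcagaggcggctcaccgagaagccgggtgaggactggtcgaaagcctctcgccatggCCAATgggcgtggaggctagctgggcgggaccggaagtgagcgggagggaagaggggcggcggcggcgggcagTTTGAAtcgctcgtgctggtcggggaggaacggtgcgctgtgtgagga
Cdc20: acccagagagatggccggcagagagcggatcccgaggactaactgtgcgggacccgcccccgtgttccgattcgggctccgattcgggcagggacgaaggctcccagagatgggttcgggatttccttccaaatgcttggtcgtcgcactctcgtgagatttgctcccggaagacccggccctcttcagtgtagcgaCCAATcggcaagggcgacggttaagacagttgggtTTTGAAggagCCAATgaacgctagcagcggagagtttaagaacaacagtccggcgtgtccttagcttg
Bub1: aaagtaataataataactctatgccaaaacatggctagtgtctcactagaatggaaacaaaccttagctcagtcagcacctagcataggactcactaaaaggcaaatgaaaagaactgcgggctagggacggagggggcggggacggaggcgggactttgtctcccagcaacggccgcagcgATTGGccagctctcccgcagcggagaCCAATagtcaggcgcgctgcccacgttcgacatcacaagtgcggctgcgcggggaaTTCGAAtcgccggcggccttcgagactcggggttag
E2f2: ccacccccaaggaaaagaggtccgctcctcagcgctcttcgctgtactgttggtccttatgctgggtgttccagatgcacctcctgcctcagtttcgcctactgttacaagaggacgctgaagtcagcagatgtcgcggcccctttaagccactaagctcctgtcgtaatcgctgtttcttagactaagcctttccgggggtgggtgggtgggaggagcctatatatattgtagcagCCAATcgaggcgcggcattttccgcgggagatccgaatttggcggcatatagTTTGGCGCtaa
Cdca7: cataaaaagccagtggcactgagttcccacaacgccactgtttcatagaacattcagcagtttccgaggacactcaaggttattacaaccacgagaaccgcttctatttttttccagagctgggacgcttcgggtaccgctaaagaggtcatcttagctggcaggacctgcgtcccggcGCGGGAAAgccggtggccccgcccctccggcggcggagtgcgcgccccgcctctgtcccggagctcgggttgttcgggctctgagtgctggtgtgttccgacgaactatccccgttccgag
Cdkn1b: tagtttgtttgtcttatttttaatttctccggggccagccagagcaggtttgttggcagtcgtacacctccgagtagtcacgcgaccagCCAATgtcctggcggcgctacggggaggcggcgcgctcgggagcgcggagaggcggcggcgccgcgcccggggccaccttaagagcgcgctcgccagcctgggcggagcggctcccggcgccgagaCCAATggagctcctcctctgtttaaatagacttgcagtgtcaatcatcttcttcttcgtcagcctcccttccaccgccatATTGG
The Cenpf window lies at chr1:189688037-189688336 (minus strand), the Cdc20 window at chr4:118437294-118437593 (minus strand), the Bub1 window at chr2:127831810-127832109 (minus strand), the E2f2 window at chr4:136172024-136172323 (plus strand), the Cdca7 window at chr2:72475969-72476268 (plus strand) and the Cdkn1b window at chr6:134920151-134920450 (plus strand).

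Among the 28 genes with a window that belong neither to the G1 cyclins and kinases nor to the inhibitors, 19 (67.9%) held a CHR word, against 21.7% of all 27025 genes in the promoter table. CCAAT boxes were present in 23 of the 28 (82.1%, against 41.1% of all genes) and E2F words in 6 (21.4%, against 2.60%), namely Cdca7, Cdk1, Cdk2, E2f2, Ncapd2 and Ncapg. The CHR words lay close to the start: 17 of the 28 genes (60.7%) had one within 50 bases of a start site, against 6.12% of all genes in the table. In none of the 6 G1 cyclin, kinase and inhibitor genes with a window (Ccnd3, Cdk4, Cdk6, Cdkn1a, Cdkn1b and Cdkn2c) were these CHR or E2F letters found. These matches describe letters in a window and not binding. Of the CHR holders, 16 of 19 fell in LPS vs Ctrl (adjusted p under 0.05 in limma), with a median log2 fold change of -1.39. Of the 9 genes with a window but no CHR word 7 fell, with a median of -1.45. In LPSEff vs Eff, 15 of the 19 and 6 of the 9 fell, with a median of -1.32 in each set. Over all tested genes, 11.6% and 8.95% fell in these comparisons.

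**Figure D1:**
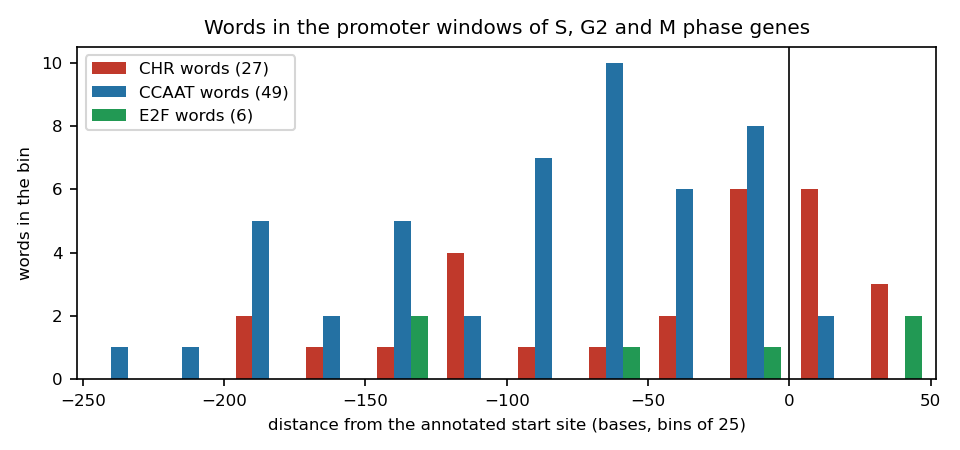
Number of CHR, CCAAT and E2F words (vertical axis) in bins of 25 bases of distance from the annotated start site (horizontal axis, in bases; negative is upstream), over the 31 promoter windows of 28 cyclin, E2F, checkpoint and mitosis genes, with a word that overlapping windows of 1 gene share counted once, at the nearest start. Of the 27 CHR words, 17 lie within 50 bases of the start, while the 49 CCAAT words have a median position of -68.

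Stimulation with LPS/IFNγ for 6 h was compared in naïve Mϕ (LPS vs Ctrl). Of the 43 genes, 32 fell and 3 rose, and 8 did not pass an adjusted p under 0.05 in limma. Over all tested genes, 24.0% were called in this comparison, 11.6% lower and 12.4% higher. The median log2 fold change of the 43 was -1.39, against -0.01 over all genes tested, and 40 of the 43 had a lower mean in LPS. In these bulk samples, fewer dividing cells and less RNA of these genes per cell cannot be told apart. Both LPS samples lay below both Ctrl samples in 37 genes and above in 3, where 30.9% and 28.4% of all tested genes did so. Removing Ctrl replicate 2 left 16 of the 35 calls and removing LPS replicate 1 left 19, and in both replicates taken alone the median difference stayed negative, at -1.51 and -1.22.

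In efferocytic Mϕ the same stimulus (LPSEff vs Eff) gave 29 genes that fell and 3 that rose, where 19.7% of all tested genes were called, 8.95% lower and 10.7% higher. The median log2 fold change of the 43 genes was -1.28, against 0.01 over all genes tested. The 3 genes that rose were Ccnd2, Cdkn1a and Cdkn1b in both comparisons. The groups did not overlap in 36 genes that were lower and 3 that were higher, where 30.4% and 29.5% of all genes did so. Without LPSEff replicate 1, 12 calls were left, without Eff replicate 1 15, and without Eff replicate 2 16. The median difference was -1.34 in replicate 1 and -1.10 in replicate 2, with 40 genes lower in each. With the replicate number as a block in limma, 39 genes were called in each comparison, where 41.2% and 37.0% of all tested genes were called.

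**Figure D2:**
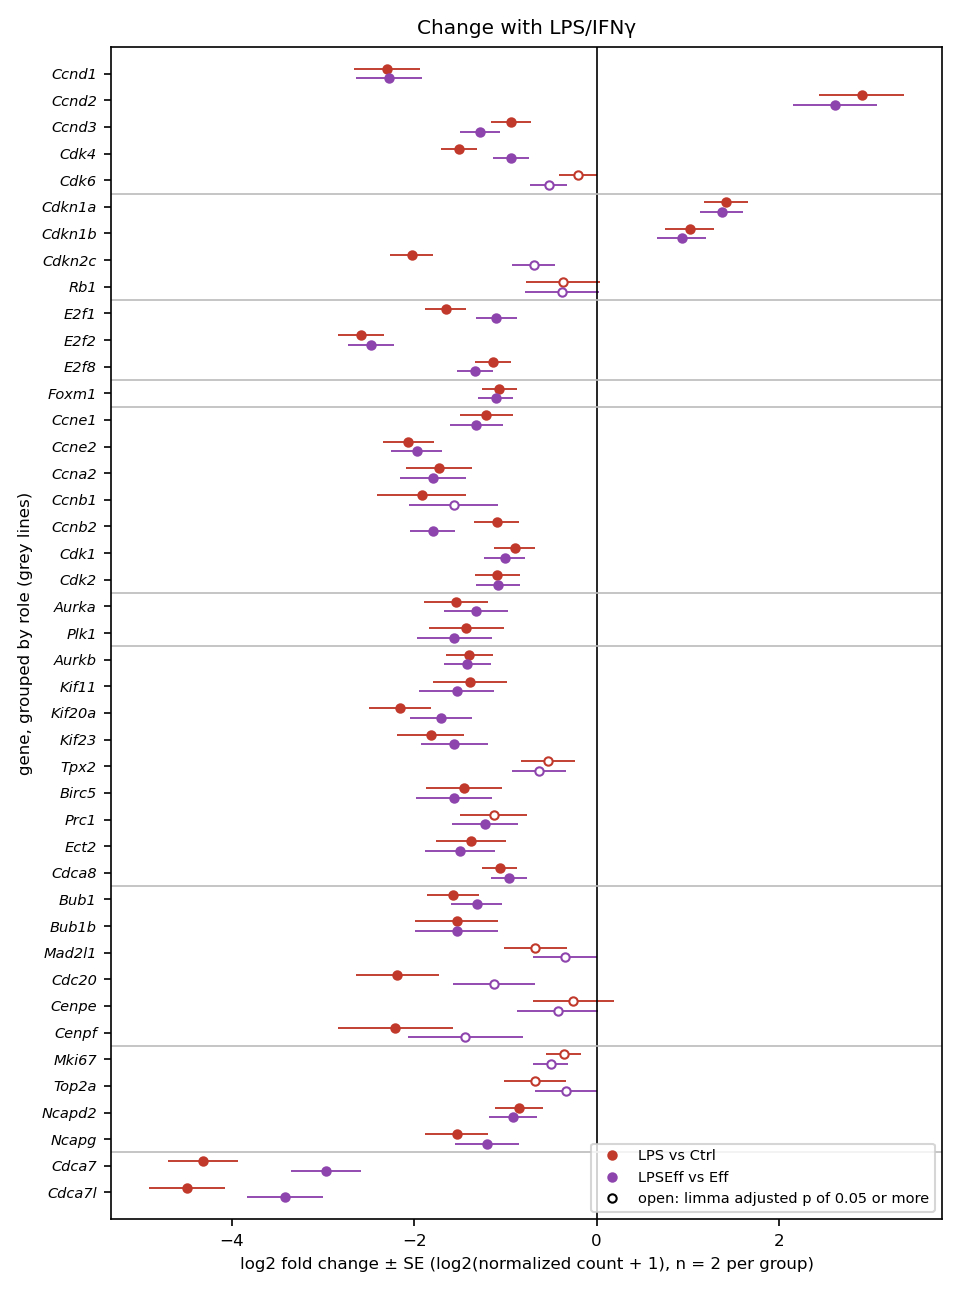
Log2 fold change ± SE (horizontal axis, on log2(normalized count + 1)) of each of the 43 genes (vertical axis, grouped by role) for LPS vs Ctrl (red) and LPSEff vs Eff (purple), n = 2 per group. Filled points passed an adjusted p under 0.05 in limma. Nearly all genes lie left of 0 in both comparisons, and Ccnd2, Cdkn1a and Cdkn1b, with filled points, lie right of it.

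The D-type cyclins, which carry the growth factor signal into the cycle, moved in opposite directions. Ccnd1 (ENSMUSG00000070348; chr7:144483668-144493662, minus strand, GRCm39) stood at 2081 and 3767 normalized counts (Ctrl), 436 and 745 (LPS), 3577 and 3513 (Eff) and 585 and 910.0 (LPSEff). All 4 stimulated samples lay below all 4 unstimulated ones, and naïve cells gave log2 fold change -2.29 ± 0.36 SE, adjusted p = 0.00301 and efferocytic cells log2 fold change -2.28 ± 0.36 SE, adjusted p = 0.00359. Ccnd2 (ENSMUSG00000000184; chr6:127102125-127129156, minus strand, GRCm39) showed the reverse, at 1641 and 3388 normalized counts (Ctrl), 11144 and 28185 (LPS), 1602 and 2042 (Eff) and 10097 and 12172 (LPSEff). Both stimulated groups lay above both unstimulated groups without overlap, although the LPS samples differed from each other by over 2-fold, and the rise was log2 fold change 2.91 ± 0.47 SE, adjusted p = 0.00328 and log2 fold change 2.61 ± 0.47 SE, adjusted p = 0.00621. Ccnd3 stood at 554 and 671 normalized counts (Ctrl), 379 and 266 (LPS), 536 and 588 (Eff) and 239 and 222 (LPSEff). It fell in both comparisons, with log2 fold change -0.94 ± 0.22 SE, adjusted p = 0.0177 and log2 fold change -1.28 ± 0.22 SE, adjusted p = 0.00543.

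Per kilobase of exon, the make-up of the D-type cyclin RNA turned over. Ccnd1 made up 65.0% and 64.5% of the summed D-type cyclin level per kilobase in Ctrl and 76.6% and 72.4% in Eff. Ccnd2 made up 90.0% and 94.2% in LPS and 87.9% and 85.8% in LPSEff. The leading D-type cyclin was thus Ccnd1 in each unstimulated sample and Ccnd2 in each stimulated one. The summed level was not lower after stimulation, at 669.5 and 1220.3 normalized counts per kilobase (Ctrl), 1316 and 3180.2 (LPS), 976 and 1015 (Eff) and 1221 and 1508 (LPSEff). These shares were computed after the rise of Ccnd2 had been seen and are a description.

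The kinase partners of the D-type cyclins differed. Cdk4 stood at 1329 and 1026 normalized counts (Ctrl), 398 and 419 (LPS), 1301 and 1051 (Eff) and 624 and 593 (LPSEff). It fell in both comparisons (log2 fold change -1.51 ± 0.20 SE, adjusted p = 0.0013 and log2 fold change -0.94 ± 0.20 SE, adjusted p = 0.0126), and all stimulated samples lay below all unstimulated ones. Cdk6 stood at 2112 and 1822 normalized counts (Ctrl), 1582 and 1837 (LPS), 2131 and 1649 (Eff) and 1200.2 and 1413 (LPSEff). It did not pass the test (log2 fold change -0.20 ± 0.20 SE, adjusted p = 0.534 and log2 fold change -0.53 ± 0.20 SE, adjusted p = 0.113), while with the replicate block its value in efferocytic Mϕ passed (adjusted p = 0.0315 in limma).

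The inhibitors also went separate ways. Cdkn1a, which encodes p21, stood at 3184 and 4248 normalized counts (Ctrl), 9014 and 10698 (LPS), 2529.8 and 2839 (Eff) and 8147 and 5912 (LPSEff). It rose in both comparisons without overlap, with log2 fold change 1.42 ± 0.24 SE, adjusted p = 0.00422 and log2 fold change 1.37 ± 0.24 SE, adjusted p = 0.0057. Under quantile normalization its rise shrank to 0.53 and 0.63 on the log2 scale and did not pass limma (adjusted p = 0.121 and 0.0775). Cdkn1b, which encodes p27, stood at 328 and 448 normalized counts (Ctrl), 706 and 859 (LPS), 244 and 400.1 (Eff) and 589.8 and 607 (LPSEff). Its rise was smaller, with log2 fold change 1.02 ± 0.27 SE, adjusted p = 0.0284 and log2 fold change 0.93 ± 0.27 SE, adjusted p = 0.0453, and with samples rescaled to equal totals it was 0.62 and 0.48 and did not pass limma (adjusted p = 0.0788 and 0.158). Both genes kept their direction under each alternative scaling.

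Cdkn2c, which encodes the INK4 inhibitor p18 and is itself a target of E2F, stood at 268 and 269 normalized counts (Ctrl), 68.5 and 61.9 (LPS), 218 and 318 (Eff) and 154 and 173 (LPSEff). In naïve Mϕ it fell (log2 fold change -2.03 ± 0.24 SE, adjusted p = 0.000772), and its stimulated values in efferocytic Mϕ were lower than the unstimulated ones by less than the threshold required (log2 fold change -0.69 ± 0.24 SE, adjusted p = 0.0798; adjusted p = 0.0194 in limma with the replicate block). Rb1, whose product the G1 kinases inactivate, stood at 341 and 418 normalized counts (Ctrl), 204 and 420.4 (LPS), 222 and 323 (Eff) and 152 and 278 (LPSEff). Its groups overlapped in naïve Mϕ, and neither comparison passed (log2 fold change -0.36 ± 0.40 SE, adjusted p = 0.576 and log2 fold change -0.38 ± 0.40 SE, adjusted p = 0.582).

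**Figure D3:**
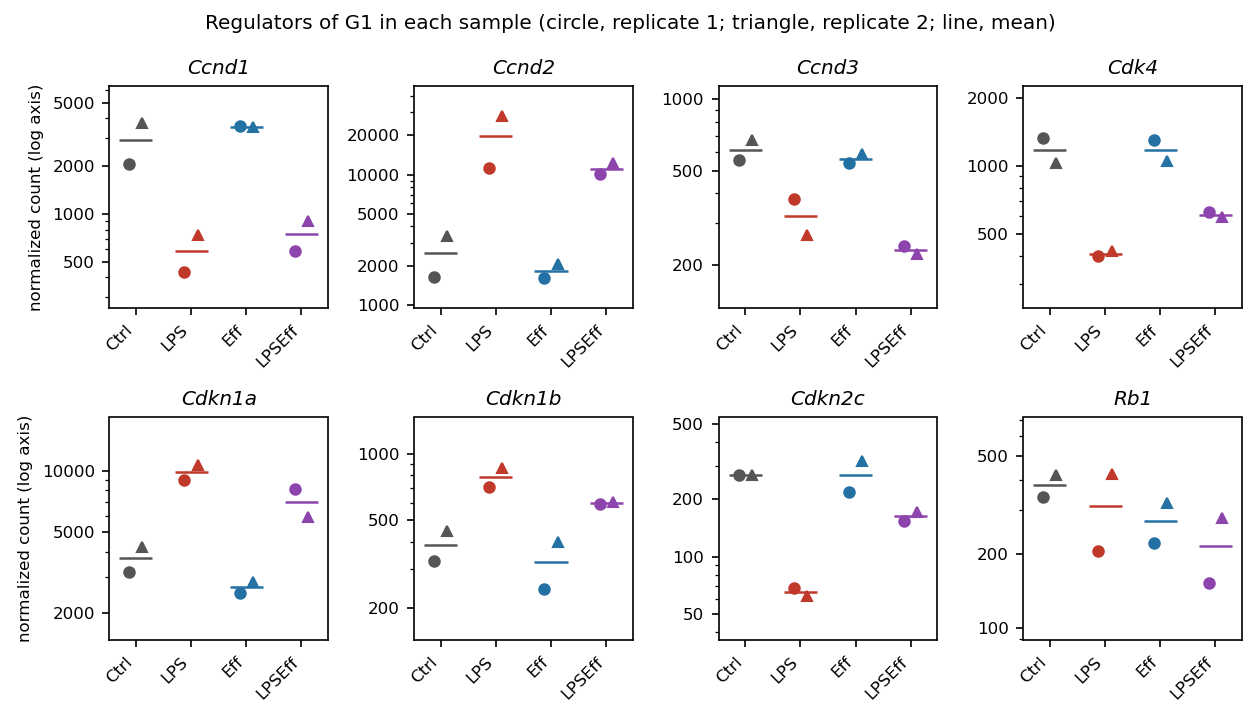
Normalized count (vertical axis, log scale, a range of its own per gene) of 8 regulators of G1 in each sample of the 4 groups (horizontal axis); circles are replicate 1, triangles replicate 2 and lines the mean. Ccnd1, Ccnd3, Cdk4 and Cdkn2c are lower and Ccnd2, Cdkn1a and Cdkn1b higher in the stimulated groups, while Rb1 overlaps between Ctrl and LPS.

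The E2F factors fell in both comparisons, 3 of 3 in each, where 11.6% and 8.95% of all tested genes fell. E2f1, an activator of S phase genes, stood at 453 and 412 normalized counts (Ctrl), 155 and 119.8 (LPS), 510.0 and 387 (Eff) and 222 and 193 (LPSEff). Its fall was log2 fold change -1.66 ± 0.23 SE, adjusted p = 0.00158 and log2 fold change -1.10 ± 0.23 SE, adjusted p = 0.0115. E2f2, a second activator, stood at 468 and 403 normalized counts (Ctrl), 60.8 and 84.3 (LPS), 386 and 329.6 (Eff) and 55.4 and 72.3 (LPSEff). Its stimulated values lay several-fold below all others, and it had the largest fall of the 43 genes apart from the Cdca7 pair in both comparisons (log2 fold change -2.58 ± 0.25 SE, adjusted p = 0.000346 and log2 fold change -2.47 ± 0.25 SE, adjusted p = 0.000413). E2f8, a repressor that is itself induced in S phase, fell by 1.13 and 1.33 on the log2 scale. Foxm1, the factor that drives the mitotic genes, stood at 436 and 401 normalized counts (Ctrl), 217 and 183 (LPS), 372 and 331 (Eff) and 164 and 161 (LPSEff). It fell in both comparisons without overlap, with log2 fold change -1.07 ± 0.19 SE, adjusted p = 0.0054 and log2 fold change -1.11 ± 0.19 SE, adjusted p = 0.00534; its exons share bases with genes on the same strand (Tex52 and Gm44596), so that its count is less certain.

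All 7 cyclins and kinases of S, G2 and M phase fell in naïve Mϕ, and 6 of 7 in efferocytic Mϕ. Of all tested genes, 11.6% and 8.95% fell. Ccne2, which opens S phase with CDK2, stood at 432 and 433 normalized counts (Ctrl), 84.1 and 125 (LPS), 274 and 369 (Eff) and 68.1 and 95.2 (LPSEff). Its fall was log2 fold change -2.07 ± 0.28 SE, adjusted p = 0.00152 and log2 fold change -1.97 ± 0.28 SE, adjusted p = 0.00219. Ccna2, the cyclin of S and G2 phase, stood at 935 and 1293 normalized counts (Ctrl), 255 and 432 (LPS), 905 and 1102 (Eff) and 207 and 396 (LPSEff). All 4 stimulated samples lay below all 4 unstimulated ones (log2 fold change -1.73 ± 0.36 SE, adjusted p = 0.0108 and log2 fold change -1.80 ± 0.36 SE, adjusted p = 0.0105). Ccnb2, a mitotic cyclin, stood at 350.4 and 512 normalized counts (Ctrl), 190.1 and 205 (LPS), 337 and 450.3 (Eff) and 105 and 118 (LPSEff). It fell with log2 fold change -1.10 ± 0.25 SE, adjusted p = 0.0148 and log2 fold change -1.80 ± 0.25 SE, adjusted p = 0.00191, and pseudogene copies of Ccnb1, Ccnb2 and Ccnd3 exist by name, whose reads may be shared. Cdk1, the kinase of mitosis, stood at 569 and 707 normalized counts (Ctrl), 357 and 325 (LPS), 642 and 644 (Eff) and 265 and 385 (LPSEff). Its fall was the smallest of the group, with log2 fold change -0.90 ± 0.22 SE, adjusted p = 0.0225 and log2 fold change -1.01 ± 0.22 SE, adjusted p = 0.0157. Ccnb1 fell in naïve Mϕ (log2 fold change -1.92 ± 0.49 SE, adjusted p = 0.0236) and missed the threshold in efferocytic Mϕ (log2 fold change -1.56 ± 0.49 SE, adjusted p = 0.0575), where it passed limma with the replicate block (adjusted p = 0.00324). Ccne1 and Cdk2 fell in both comparisons, by 1.08 to 1.32 on the log2 scale.

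Both mitotic kinases fell in both comparisons. Aurka, which matures the centrosomes, stood at 249 and 412 normalized counts (Ctrl), 86.7 and 138 (LPS), 244 and 339 (Eff) and 95.0 and 138 (LPSEff). Its fall was log2 fold change -1.54 ± 0.35 SE, adjusted p = 0.0154 and log2 fold change -1.32 ± 0.35 SE, adjusted p = 0.0329. Plk1, which drives entry into mitosis, stood at 187 and 323 normalized counts (Ctrl), 63.4 and 129 (LPS), 249.7 and 301 (Eff) and 72.8 and 117 (LPSEff). Its fall was log2 fold change -1.43 ± 0.41 SE, adjusted p = 0.0374 and log2 fold change -1.56 ± 0.41 SE, adjusted p = 0.0311. In each of these genes, all stimulated samples lay below all unstimulated ones.

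Of the 9 genes of the chromosomal passenger complex, the spindle and cytokinesis, 7 fell in naïve and 8 in efferocytic Mϕ. The shares of all tested genes that fell were 11.6% and 8.95%. Kif20a, a kinesin of the central spindle, stood at 653 and 881 normalized counts (Ctrl), 122 and 237 (LPS), 565 and 697 (Eff) and 158 and 232 (LPSEff). It had the largest fall of the 9 in both comparisons (log2 fold change -2.15 ± 0.34 SE, adjusted p = 0.00327 and log2 fold change -1.70 ± 0.34 SE, adjusted p = 0.0106). Kif23, a kinesin needed for cytokinesis, stood at 359.9 and 549 normalized counts (Ctrl), 102 and 153 (LPS), 323 and 464 (Eff) and 97.4 and 175 (LPSEff). Its fall was log2 fold change -1.82 ± 0.37 SE, adjusted p = 0.00899 and log2 fold change -1.56 ± 0.37 SE, adjusted p = 0.0195. Tpx2, a spindle assembly factor that activates Aurora A, stood at 636 and 733 normalized counts (Ctrl), 358 and 621 (LPS), 528 and 658 (Eff) and 319 and 452 (LPSEff). It did not pass in either comparison (log2 fold change -0.53 ± 0.30 SE, adjusted p = 0.243 and log2 fold change -0.63 ± 0.30 SE, adjusted p = 0.183), but did in both with the replicate block (adjusted p = 0.0232 and 0.0111 in limma). Prc1, which bundles microtubules at the midzone, just missed the threshold in naïve Mϕ (log2 fold change -1.13 ± 0.36 SE, adjusted p = 0.0572; adjusted p = 0.000123 in limma with the block) and fell in efferocytic Mϕ (log2 fold change -1.22 ± 0.36 SE, adjusted p = 0.0494). The passenger genes Aurkb, Birc5 and Cdca8, the motor Kif11 and the cytokinesis factor Ect2 fell in both comparisons, with log2 fold changes between -1.56 and -0.96.

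Of the 6 spindle checkpoint and kinetochore genes, 4 fell in naïve and 2 in efferocytic Mϕ, where 11.6% and 8.95% of all tested genes fell. Bub1, a checkpoint kinase, stood at 413 and 430.3 normalized counts (Ctrl), 106 and 187 (LPS), 241 and 301 (Eff) and 104 and 112 (LPSEff). It fell with log2 fold change -1.58 ± 0.28 SE, adjusted p = 0.00548 and log2 fold change -1.31 ± 0.28 SE, adjusted p = 0.0136, and Bub1b, which encodes BUBR1, fell by 1.53 on the log2 scale in both comparisons. Cdc20, the activator of the anaphase-promoting complex, stood at 206 and 272 normalized counts (Ctrl), 31.0 and 84.3 (LPS), 221 and 268 (Eff) and 87.1 and 142 (LPSEff). It fell in naïve Mϕ (log2 fold change -2.18 ± 0.45 SE, adjusted p = 0.0103), while its efferocytic value did not pass (log2 fold change -1.12 ± 0.45 SE, adjusted p = 0.126; adjusted p = 0.00608 in limma with the replicate block). Cenpf, a kinetochore protein of G2 and M phase, stood at 518 and 893 normalized counts (Ctrl), 85.4 and 252 (LPS), 424 and 867 (Eff) and 136 and 364 (LPSEff). Replicate 2 was higher than replicate 1 in each group; the gene fell in naïve Mϕ (log2 fold change -2.20 ± 0.63 SE, adjusted p = 0.037) and passed in efferocytic Mϕ only with the block (log2 fold change -1.44 ± 0.63 SE, adjusted p = 0.156; adjusted p = 0.000188 in limma). Cenpe, a kinetochore motor, stood at 579 and 756 normalized counts (Ctrl), 401 and 767 (LPS), 359 and 654 (Eff) and 254 and 511 (LPSEff). Its groups overlapped in both comparisons and neither passed (log2 fold change -0.25 ± 0.44 SE, adjusted p = 0.738 and log2 fold change -0.43 ± 0.44 SE, adjusted p = 0.568). Mad2l1, which encodes the checkpoint protein MAD2, did not pass either (log2 fold change -0.67 ± 0.35 SE, adjusted p = 0.213 and log2 fold change -0.35 ± 0.35 SE, adjusted p = 0.553), but did in naïve Mϕ with the block (adjusted p = 0.00637 in limma).

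The most widely used proliferation marker had 1 of the smaller differences. Mki67, which encodes Ki-67, stood at 3435 and 2640.0 normalized counts (Ctrl), 2465 and 2230.0 (LPS), 2314 and 2121 (Eff) and 1524 and 1603 (LPSEff). Its stimulated samples lay below the unstimulated ones of the same pair of groups, yet neither comparison passed in the main fit (log2 fold change -0.36 ± 0.19 SE, adjusted p = 0.217 and log2 fold change -0.50 ± 0.19 SE, adjusted p = 0.105). The block brought only the efferocytic one below the threshold (adjusted p = 0.0179 in limma). The number of genes that missed the threshold differed with the scaling. With samples rescaled to equal totals, limma called 38 and 36 of the 43 genes lower, against 32 and 29 in the main fit. Under that scaling 26.5% and 26.7% of all tested genes fell. The median log2 fold change of all tested genes was then -0.40 and -0.44, so that lower calls were gained over all genes too. Top2a, which untangles DNA before division, stood at 1935 and 2765 normalized counts (Ctrl), 1176 and 1786 (LPS), 1432 and 2055 (Eff) and 1042 and 1768 (LPSEff). It did not pass the main fit either (log2 fold change -0.67 ± 0.34 SE, adjusted p = 0.197 and log2 fold change -0.34 ± 0.34 SE, adjusted p = 0.552). With the block it passed in naïve Mϕ (adjusted p = 0.00196 in limma). Its exons overlap a small gene on the same strand (Gm23451). The condensin genes Ncapd2 and Ncapg fell in both comparisons, by 0.85 to 1.53 on the log2 scale. Ncapd2 shares exonic bases with Scarna10 and Gm28967. Per kilobase of exon, the mean levels of Mki67, Ccna2 and Top2a were 296, 273 and 258 normalized counts per kilobase in Ctrl, the highest of the 34 genes outside the G1 cyclins, kinases and inhibitors. The same genes led in Eff, where Mki67 was at 216, Ccna2 at 246 and Top2a at 191, and in both groups the samples of the 3 genes overlapped. In the stimulated groups Mki67 and Top2a led, at 229 and 162 in LPS and 152 and 154 in LPSEff.

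The largest falls belonged to Cdca7 and Cdca7l, nuclear proteins of the same family that are transcribed with the cycle, of which CDCA7 recruits the chromatin remodeller HELLS. Cdca7 stood at 135 and 126 normalized counts (Ctrl), 5.17 and 6.09 (LPS), 230.5 and 139 (Eff) and 16.6 and 29.2 (LPSEff). The LPS values rest on 4 and 6 reads. Its fall was log2 fold change -4.31 ± 0.38 SE, adjusted p = 0.000224 and log2 fold change -2.96 ± 0.38 SE, adjusted p = 0.00136. Cdca7l stood at 289 and 249 normalized counts (Ctrl), 6.47 and 18.3 (LPS), 326 and 277 (Eff) and 27.7 and 26.7 (LPSEff). Its lowest value, in LPS replicate 1, rests on 5 reads, and its fall was log2 fold change -4.49 ± 0.42 SE, adjusted p = 0.00027 and log2 fold change -3.42 ± 0.42 SE, adjusted p = 0.00105. In linear terms these were falls of 19.9-fold and 22.4-fold in naïve Mϕ, and of 7.80-fold and 10.7-fold in efferocytic Mϕ, on the scale with 1 added to each count.

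Taken over the 34 genes outside the G1 cyclins, kinases and inhibitors, the mean was lower in all 34 in both comparisons. Of these, 28 and 26 passed, where 11.6% and 8.95% of all tested genes were called lower. Their summed normalized count was 18665 and 22023 (Ctrl), 8481 and 11418 (LPS), 15501 and 18259.9 (Eff) and 6778 and 9853 (LPSEff). Each stimulated sum lay below each unstimulated one, and in each group replicate 2 was higher. This last pattern ran through the genes: replicate 2 exceeded replicate 1 in 34 of the 43 genes in Ctrl, 36 in LPS, 31 in Eff and 37 in LPSEff, where 59.5%, 59.1%, 57.0% and 56.6% of all tested genes did so. The median fall of the 34 was 2.66-fold in naïve and 2.50-fold in efferocytic Mϕ.

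**Figure D4:**
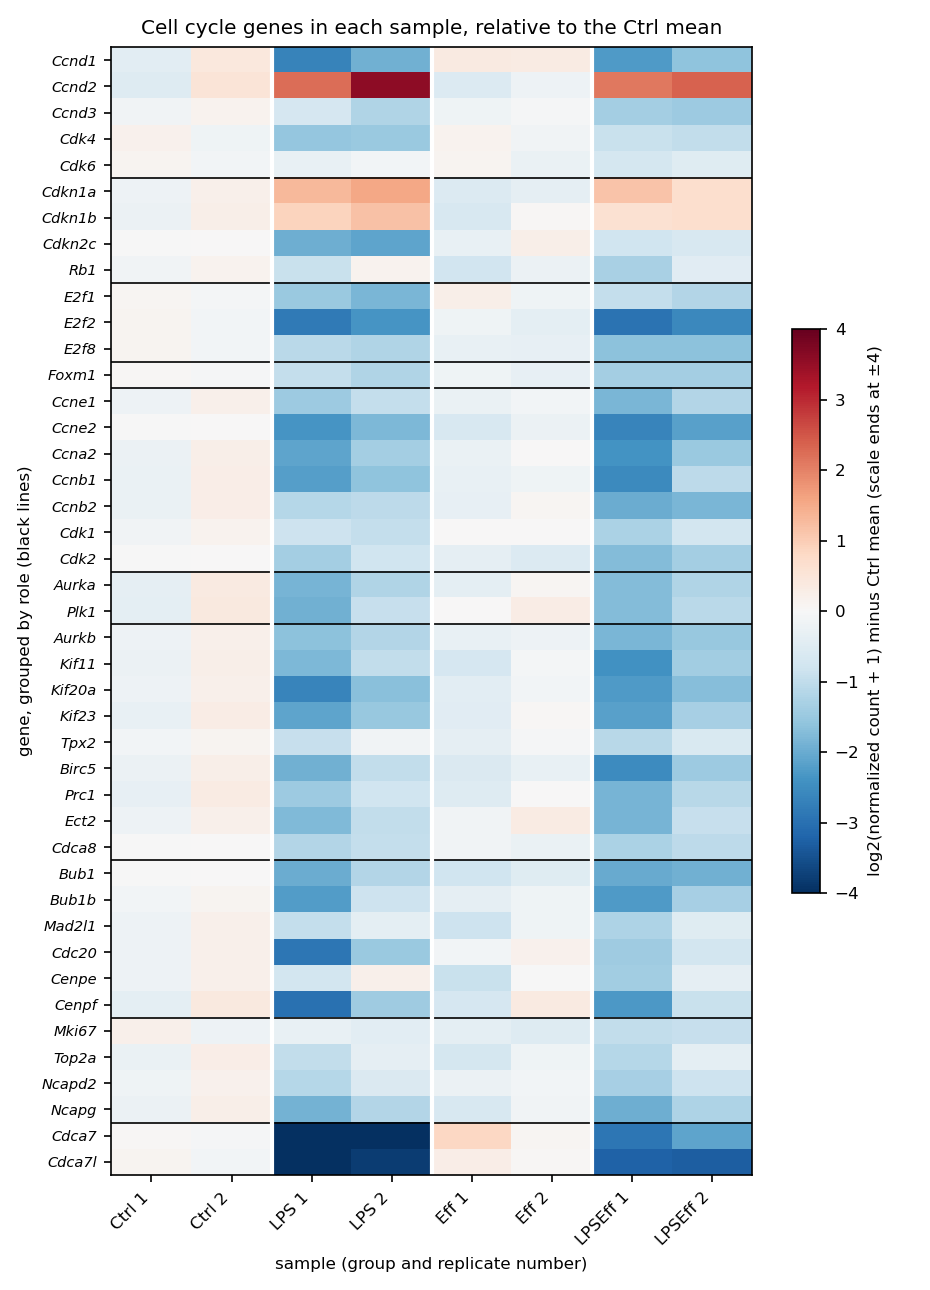
Difference of each of the 43 genes (vertical axis, grouped by role) in each of the 8 samples (horizontal axis) from the mean of the Ctrl samples, in log2(normalized count + 1), with blue for lower and red for higher values. The 4 stimulated columns are blue for most genes and red for Ccnd2, Cdkn1a and Cdkn1b, and replicate 1 is bluer than replicate 2 for most mitotic genes.

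Other genes of the cycle, from lists written by function, were set beside these. Of 70 further mitosis genes, 69 were tested, and 44 fell and 1 rose in naïve Mϕ (median log2 fold change -1.18), while 36 fell and 1 rose in efferocytic Mϕ (median -1.13). These falls were 63.8% and 52.2% of the genes tested, where 11.6% and 8.95% of all tested genes fell. With the replicate block, which called 41.2% and 37.0% of all tested genes in either direction, 57 and 61 of the 69 fell and 1 rose in each. The largest falls in naïve Mϕ were those of Cdc25b, a phosphatase that activates CDK1 (-2.63), Sgo1, which protects centromeric cohesion (-2.34), Anln, of the contractile ring (-2.25), and Ccnf, cyclin F (-2.21). In efferocytic Mϕ they were those of Cdc25b (-2.37), Cdca5 (-2.06), Cdca2 (-1.95) and Anln (-1.76). The gene that rose was Pttg1, which encodes securin, at 156 and 194 normalized counts (Ctrl), 348 and 652 (LPS), 125 and 156 (Eff) and 319 and 293 (LPSEff) (log2 fold change 1.45 and 1.12). In the promoter table, 42 of 60 of these genes (70.0%) held a CHR word.

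Further regulators of the G1/S transition were examined next. Of 24 tested, 7 fell and 2 rose in naïve Mϕ (median -0.27), and 6 fell and 2 rose in efferocytic Mϕ (median -0.23). The share that fell was 29.2% and 25%, where 11.6% and 8.95% of all tested genes did so, and the share that rose was 8.33% in each, where 12.4% and 10.7% of all tested genes rose. With the block, 10 fell in each comparison, and 3 and 5 rose. Of all 16309 tested genes, the block called 41.2% and 37.0%, with 3380 and 2932 lower and 3337 and 3101 higher. Myc, a driver of growth, stood at 543 and 412 normalized counts (Ctrl), 86.7 and 93.4 (LPS), 827 and 406 (Eff) and 101 and 147 (LPSEff). It fell in both comparisons (log2 fold change -2.38 and -2.24), as did E2f7 (-1.93 and -1.55) and E2f6 (-1.69 and -1.67), 2 repressors of the family. Cdkn2b, which encodes the INK4 inhibitor p15, rose in both (1.64 and 1.60).

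Besides Cdkn1a, 15 genes of p53, a transcription factor of the DNA damage response, and its targets were tested. In naïve Mϕ 2 rose and 4 fell, and in efferocytic Mϕ 2 rose and 2 fell. The share that rose, 13.3% in each, was near the 12.4% and 10.7% of all tested genes, and the share that fell was 26.7% and 13.3%, where 11.6% and 8.95% of all tested genes fell. With the block, 2 rose and 7 fell in naïve Mϕ, and 3 rose and 5 fell in efferocytic Mϕ. That fit called 41.2% and 37.0% of all 16309 tested genes, with 3337 and 3101 higher and 3380 and 2932 lower. Gadd45a rose (2.44 and 1.80) and so did Mdm2 (1.03 and 1.42), whereas Zmat3 (-1.43 and -1.29) and Aen (-1.57 and -0.87) fell in both and Phlda3 (-1.47) and Sesn1 (-1.33) fell in naïve Mϕ.

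Bone marrow progenitors divide in such cultures, and 10 markers of them were examined. The markers summed to 1268 and 1888 normalized counts (Ctrl), 604 and 913 (LPS), 998 and 1623 (Eff) and 661 and 868 (LPSEff). The sum was lower in all stimulated samples, and most of it came from Kit and Cd34. Most of the other markers pointed the other way: of the 9 tested, 7 had a higher mean in LPS than in Ctrl (median log2 fold change of the 9, 1.18), 6 of them without overlap, and 7 a higher mean in LPSEff than in Eff (median 0.43), 1 of them without overlap. Of all tested genes, 28.4% and 29.5% were higher without overlap in these comparisons. Kit, the receptor for stem cell factor, was the most abundant over the samples and the only 1 of the 9 markers tested that was called, at 983 and 863 normalized counts (Ctrl), 237 and 269 (LPS), 677 and 771 (Eff) and 145 and 247 (LPSEff) (log2 fold change -1.86 and -1.93). Over all tested genes, limma called 24.0% and 19.7% in these comparisons. With the replicate block, limma called 4 markers higher and 2 lower in LPS vs Ctrl, and 1 higher and 1 lower in LPSEff vs Eff. The block called 41.2% and 37.0% of all tested genes in either direction. The granule genes Mpo, Elane, Prtn3 and Ctsg reached at most 67.3 normalized counts, and Gata1 was at 0 in Ctrl replicate 1. The part of such cells in the falls of the cycle genes was not tested.

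Efferocytosis alone (Eff vs Ctrl) called 0 of the 43 genes, where 0.251% of all tested genes were called by limma (41 genes). At an unadjusted p under 0.05, 1 of the 43 and 1000 of all genes (6.13%) passed, and edgeR and DESeq2 on the recovered reads also called 0 of the 43, as did limma with the replicate block (2.67% of all genes). The mean was lower in Eff for 34 of the 43 genes and for 8404 of all 16309 tested genes. The median log2 fold change of the 43 was -0.24, against -0.01 over all genes. Within replicate 1 the median was -0.16 with 34 lower, and within replicate 2 -0.26 with 38 lower. Of all tested genes, 49.6% and 55.0% were lower within these replicates. With 1 sample left out, the median was -0.06 without Ctrl replicate 2 (26 genes lower), -0.12 without Eff replicate 1 (28 lower) and -0.38 without Ctrl replicate 1 (38 lower). The groups did not overlap in 12 genes that were lower and 1 that was higher, where 17.8% and 16.3% of all tested genes did so. The lowest unadjusted p-values were those of Mki67, Bub1 and Cdkn1a. The Mki67 samples at 3435 and 2640.0 normalized counts (Ctrl) and 2314 and 2121 (Eff) gave log2 fold change -0.44 ± 0.19 SE, adjusted p = 0.801. For Bub1 the change was log2 fold change -0.65 ± 0.28 SE, adjusted p = 0.814, and for Cdkn1a it was log2 fold change -0.46 ± 0.24 SE, adjusted p = 0.943. None of these passed, and with 2 samples a group a change of this size may go undetected.

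Under LPS/IFNγ, efferocytic and naïve Mϕ were compared next (LPSEff vs LPS), and limma again called 0 of the 43 genes, where 0.773% of all tested genes were called. Unadjusted, 9 of the 43 passed 0.05 in limma (10.3% of all tested genes), DESeq2 called 1 of the 43 and edgeR 0. The median log2 fold change of the 43 was -0.23, against -0.003 over all genes. The mean was lower in LPSEff for 30 of the 43 and for 8203 of all 16309 tested genes. Within replicate 1 the median was -0.17 with 32 lower, and within replicate 2 -0.21 with 30 lower. Of all tested genes, 48.3% and 52.6% were lower within these replicates. With 1 sample left out, which breaks the pairing by replicate number, the median was 0.06 without LPS replicate 2 and 0.03 without LPSEff replicate 1, with 18 of the 43 lower in each case, and -0.45 without LPS replicate 1 and -0.44 without LPSEff replicate 2. The groups did not overlap in 8 genes that were lower and 6 that were higher, where 17.0% and 19.3% of all tested genes did so.

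With the replicate block, which raised the calls over all genes to 6.97%, 7 of the 43 genes passed in this comparison. Higher in LPSEff were Cdkn2c, Cdca7, Cdc20, E2f1 and Cdk4, and lower were Ccnb2 and Mki67. Cdkn2c, at 68.5 and 61.9 normalized counts (LPS) and 154 and 173 (LPSEff), had the lowest p of the 43 (log2 fold change 1.31 ± 0.24 SE, adjusted p = 0.0591; 0.00405 with the block), and it was also the gene called by DESeq2 (adjusted p = 0.00619). Cdca7, at 5.17 and 6.09 normalized counts (LPS) and 16.6 and 29.2 (LPSEff), followed (log2 fold change 1.80 ± 0.38 SE, adjusted p = 0.108; 0.0145 with the block). Ccnb2 went the other way, at 190.1 and 205 normalized counts (LPS) and 105 and 118 (LPSEff) (log2 fold change -0.82 ± 0.25 SE, adjusted p = 0.255; 0.018 with the block). The block brought Cdc20 (1.10 on the log2 scale), E2f1 (0.60), Cdk4 (0.57) and Mki67 (-0.58) to adjusted p-values between 0.0316 and 0.045 in limma.

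**Figure D5:**
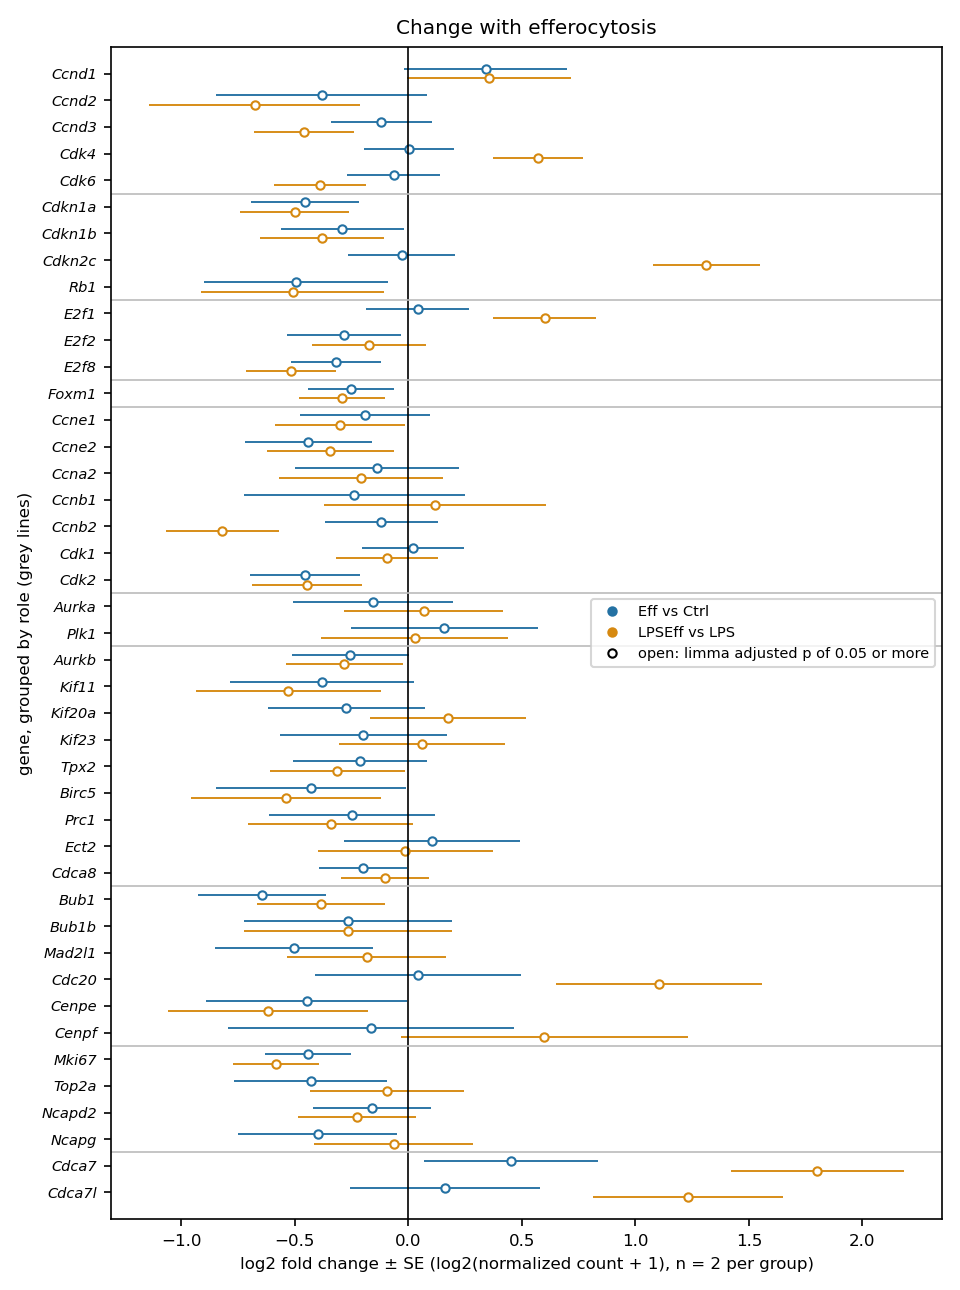
Log2 fold change ± SE (horizontal axis, on log2(normalized count + 1)) of each of the 43 genes (vertical axis, grouped by role) for Eff vs Ctrl (blue) and LPSEff vs LPS (orange), n = 2 per group. All points are open because none passed an adjusted p under 0.05 in limma; Cdc20, Cdkn2c, Cdca7 and Cdca7l lie furthest right in LPSEff vs LPS, and the others lie between -0.82 and 0.60.

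Whether the LPS/IFNγ effect differed between efferocytic and naïve Mϕ was tested as an interaction. It called 0 of the 43 genes and 0 of all genes in limma, with and without the block, and unadjusted p-values under 0.05 were found for 2 of the 43 and 311 of all genes (1.91%); edgeR and DESeq2 also called 0 of the 43. The 2 were Cdkn2c (log2 fold change 1.34 ± 0.33 SE, adjusted p = 1; unadjusted p = 0.0037) and Cdca7 (log2 fold change 1.35 ± 0.54 SE, adjusted p = 1; unadjusted p = 0.0366), and Cdk4 followed (log2 fold change 0.57 ± 0.28 SE, adjusted p = 1; unadjusted p = 0.0756). A difference in the response of these genes between naïve and efferocytic Mϕ was therefore not detectable with these samples, and the values do not show that the responses were alike.

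The apoptotic cells were fibroblasts, and markers of fibroblasts moved with efferocytosis. The 18 fibroblast markers summed to 634 and 670.3 normalized counts (Ctrl), 4725 and 2481 (LPS), 2036 and 4313 (Eff) and 6885 and 6309 (LPSEff). The high sums in LPS came mostly from Lox, the most abundant of the list over the samples, at 3620.2 and 1335. Of the 16 markers tested, 6 rose in Eff vs Ctrl, namely Col1a1, Col1a2, Col3a1, Col6a1, Pdgfra and Fbn1, and 6 rose in LPSEff vs LPS, with Dcn in place of Fbn1, where 0.251% and 0.773% of all tested genes were called in these comparisons. The markers were also higher with LPS/IFNγ: in LPS vs Ctrl, where no apoptotic cells were added, 14 of the 16 had a higher mean (median log2 fold change 1.10) and Pdgfrb, Fbn1, Lox and Col5a1 rose, and in LPSEff vs Eff all 16 had a higher mean (median 0.95) and Pdgfrb and Lox rose, where 12.4% and 10.7% of all tested genes did so. With the replicate block limma called 11 of the 16 in Eff vs Ctrl, 9 in LPSEff vs LPS, 10 in LPS vs Ctrl and 7 in LPSEff vs Eff, each of them higher, where 2.67%, 6.97%, 41.2% and 37.0% of all tested genes were called in either direction. Col1a2, a collagen chain of fibroblasts, stood at 7.62 and 39.9 normalized counts (Ctrl), 28.5 and 83.3 (LPS), 582 and 1107 (Eff) and 1913 and 1369 (LPSEff). At 0 were Col6a2, Postn and Dcn in Ctrl replicate 1 and Lum in LPS replicate 1. NIH-3T3 cells divide and can carry RNA of the cycle genes, and the part of such RNA in the values of the 43 genes in Eff and LPSEff was not tested.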

How the data were processed

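Total RNA was depleted of rRNA and sequenced in single-end reads of 50 cycles. Per the labels and the study's methods, the authors used cutadapt, Bowtie2, STAR (mm39), HTSeq and DESeq2; versions, the annotation release and the model are not given in the sources used here. The values the authors deposited, the normalized counts, are a signal per gene, and 100% of them were whole multiples of 1 read (tolerance 0.01 reads), so that read counts per sample (from 3481288 to 12020918) could be recovered. The depth limits the lowest genes, since 3 reads, a floor for counting error only, are 5.71 normalized counts in the shallowest sample.

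Symbols for 54749 of the identifiers (98.9%) came from GENCODE release 39 for GRCm39. The main test was limma 3.58.1 (R 4.3.3) on log2 of the normalized count plus 1, with limma's trend option, over the 16309 genes whose mean was 10 or more, with 1 mean per group for all 8 samples, 4 residual degrees of freedom and Benjamini-Hochberg adjustment over all genes. Fold changes are on that scale. With 2 samples against 2, the smallest exact permutation p is 0.333. Alternatives were pseudocounts of 0.5 and 5, filters at a mean above 0 and at 50, fits of the compared groups alone, equal totals, quantile normalization, edgeR 4.0.16 and DESeq2 1.42.0 on recovered reads, leaving out each sample, and the replicate number as a block. The labels number the samples 1 and 2 but do not say what the numbers share. The differences between replicate 2 and 1 correlated across genes in all 6 pairs of groups (r from 0.404 to 0.595). The numbers were therefore read as pairing from the data. Of the fits, only the one with the replicate block used this pairing, and the main fit did not. The tests were checked on simulated data, and no value from that check is given here.

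The 43 genes, their roles and the other lists were chosen with earlier results of these data known. Values in every sample are given for all regulators of G1, the 10 largest called changes of each LPS/IFNγ comparison, the 2 highest means of each other role and, where no gene was called, the 3 lowest p-values. From the lists of other mitosis genes, G1/S regulators and p53 targets, the 4 largest called changes of each LPS/IFNγ comparison are named. Outside that rule, Pttg1 was named because it rose, and Sesn1 as a further called gene. Promoter words were counted in RefSeq windows of GRCm38.p6, a build other than that of the gene positions.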

Additional observations from a re-analysis of the deposited data

How the results depend on the processing

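The 67 calls among the 43 genes (35 in LPS vs Ctrl and 32 in LPSEff vs Eff) were recomputed under 18 alternatives, and 0 of the 1206 values changed direction. Of the 670 values that kept all samples, 15 lost their call, among them Cdkn1a under quantile normalization and Cdkn1b with equal totals. Both scalings also added calls. The genes called lower among the 43 went from 32 and 29 to 38 and 36 with equal totals. With quantile normalization they were 36 and 32. Over all tested genes, 26.5% and 26.7% were called lower with equal totals, and 14.1% and 12.9% with quantile normalization. With 1 sample left out, in a fit where the lone sample of a group is assumed to vary like the others, 127 of 536 values lost it, and the count of called genes ranged from 16 to 35 in LPS vs Ctrl and from 12 to 33 in LPSEff vs Eff. Over all genes these ranges were 2076 to 3562 and 1567 to 3407, with 0 to 45 for Eff vs Ctrl, and 0 to 84 for LPSEff vs LPS. Equal totals moved the median of all genes to -0.40 in LPS vs Ctrl and -0.44 in LPSEff vs Eff (that of the 43 genes to -1.79 and -1.73), took the share of higher calls from 51.5% to 24.8% and from 54.6% to 21.8%, and gave 5578 calls over all genes in LPSEff vs Eff. With the replicate block, limma called 6717 of all genes in LPS vs Ctrl and 6033 in LPSEff vs Eff, while it called 436 in Eff vs Ctrl. In LPSEff vs LPS it called 1137, among them 7 of the 43 genes; among the 43 genes it ended no call, and the calls it added are given in the report. In Eff vs Ctrl, all genes called were 79 with a mean above 0, 20 with a mean of at least 50, 9 with only the groups compared, 14 in edgeR and 207 in DESeq2. In LPSEff vs LPS they were 66 with only the groups compared and 368 in DESeq2, and of the 43 genes 1 was called with quantile normalization and 1 in DESeq2. The normalized counts summed to 6628959 and 6951788 (Ctrl), 8470249 and 9489294 (LPS), 6587737 and 6877496 (Eff) and 8920305 and 9483284 (LPSEff). Equal totals divides each sample by its sum, which by arithmetic lowers the stimulated samples against the unstimulated ones. What made the sums differ was not tested, nor was the cause of the other shifts. With 2 samples a group and as few as 3481288 reads in a sample, small changes and genes of few reads such as Cdca7 in LPS are measured with little precision.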
